A study of Homo sapiens with 12 samples.

Results

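The comparison described here set A375 cells treated with both DdBIC and hemin against untreated A375 cells, and asked how far the cotreated cells stood from the untreated ones over all genes. A375 is an established human melanoma line, labelled wild type in every library. DdBIC, written DBIC in the labels, is dodecyl 1H-benzo[d]imidazole-5-carboxylate, a ligand of the orphan nuclear receptor Nur77 (NR4A1), and hemin is the iron-containing porphyrin that the study used as an inhibitor of DdBIC-induced pyroptosis. The comparison takes 6 of the 12 libraries of the series, 3 labelled Ctrl and 3 labelled DBIC+Hemin, and the remaining groups are 3 libraries treated with DdBIC alone and 3 treated with hemin alone. The dose and duration of the treatments are not given for the RNA-seq in the sources used here, which also do not say whether the 3 libraries of a group came from separate cultures, so that p-values measure the spread between these libraries, which may be technical. All groups are 1 cell line, and in bulk RNA a change in the share of cells in a state cannot be told apart from a change per cell. Of 20263 genes in the table, 14287 passed the filter on low counts and were tested.

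Total counts ran from 37951275 to 44358912 per library, 38781606 to 39850094 in Ctrl and 40464308 to 44358912 in DdBIC+Hemin. Values are given as CPM, counts scaled to a common library total, and changes are log2 fold changes with their standard error (SE) from edgeR's quasi-likelihood fit over all 12 libraries, with Benjamini-Hochberg adjusted p-values over all tested genes. A gene is called at an adjusted p under 0.05. The label of the line was checked against lineage genes. SOX10, the transcription factor of the neural crest and melanocyte lineage, was abundant in every library, between 548 and 769 CPM, and MC1R, PAX3, MITF, S100B, EDNRB and RAB27A had from 4.50 to 22.8 CPM. The other 8 of the 15 listed melanocyte genes, PMEL, MLANA, TYR, TYRP1, DCT, GPR143, SLC45A2 and TRPM1, most of them pigment genes, lay between 0 and 1.11 CPM. The leukocyte gene PTPRC had 0 counts in all 12 libraries, and the summed level of the 5 erythroid genes stayed at or below 0.189 CPM.

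As background, heme that enters a cell is opened by heme oxygenase 1 (HMOX1) into biliverdin, carbon monoxide and iron. Free heme removes the repressor BACH1 from antioxidant response elements, which the activator NRF2 then occupies, and it lowers ALAS1, the first enzyme of heme synthesis. Cells short of heme or amino acids, or with stressed mitochondria or endoplasmic reticulum (ER), phosphorylate eIF2α and make ATF4, which switches on genes of amino acid supply. DdBIC acts through Nur77, itself the product of an immediate-early gene.

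In DdBIC+Hemin against Ctrl 1771 of 14287 tested genes were called, or 12.4%. The calls split into 808 rises (5.66%) and 963 falls (6.74%). In cells given DdBIC alone 5310 genes were called against the same Ctrl libraries (37.2%), and with hemin alone 580 (4.06%). Most of the displaced genes moved little. The median absolute log2 fold change of the 1771 genes was 0.29, 1412 of them moved by less than 0.5, 277 by 0.5 to 1 and 82 by at least 1 (0.574% of tested genes), of which 56 were higher and 26 lower. By comparison, 502 called genes moved by at least 1 with DdBIC alone and 16 with hemin alone. The direction split depended on scaling: without composition factors, that is by library size only, 34.4% of called genes were higher, against 45.6% with the scaling used here.

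A gene was placed near Ctrl when the whole 95% interval of its log2 fold change lay between -0.5 and 0.5. This held for 9296 genes, 65.1% of those tested, 1092 of which were also called because a small change was measured precisely. Another 4312 genes were neither called nor near Ctrl, since their intervals were too wide to place them. Those had a median of 1.59 CPM, against 41.2 CPM for the genes near Ctrl. Among the 10616 genes whose mean reached 5 CPM, 82.6% were near Ctrl. With a margin of 0.25 in place of 0.5, 5057 genes were near Ctrl.

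**Figure D1:**
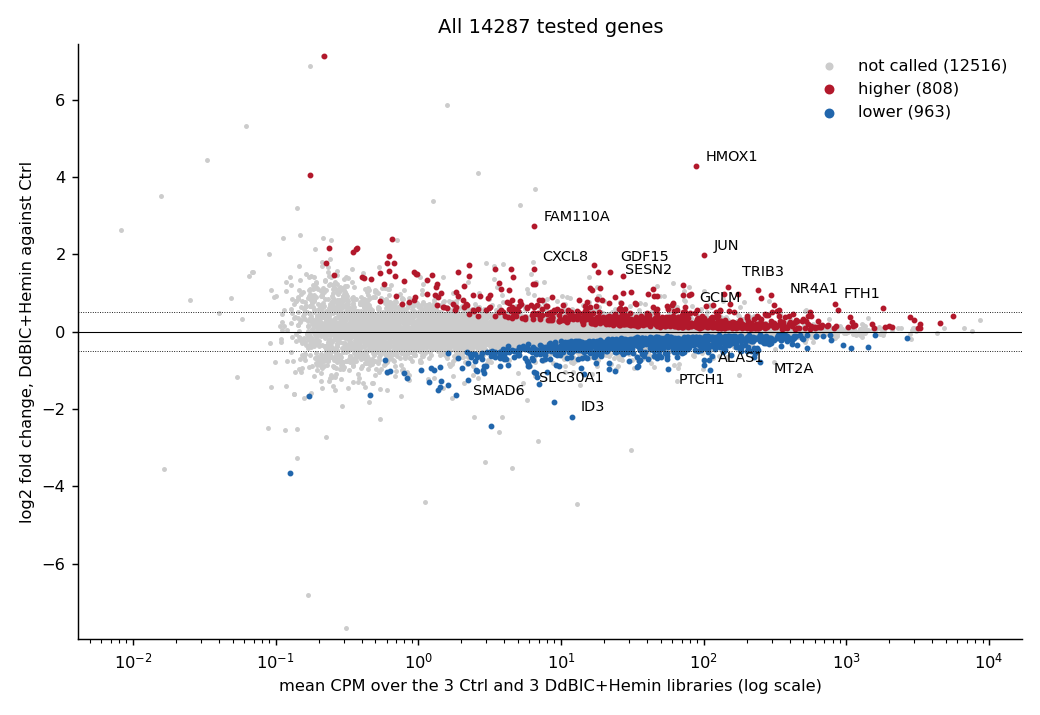
Log2 fold change of DdBIC+Hemin against Ctrl (vertical axis) for every tested gene, by its mean CPM over the 6 libraries (horizontal log axis). Red points are the 808 genes called higher, blue points the 963 called lower and grey points the genes not called, with dotted lines at -0.5 and 0.5. HMOX1 stands alone among abundant genes, and the grey cloud widens at low CPM.

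The distance of each library from the Ctrl mean was taken as the root mean square of its log2 CPM differences over tested genes. Each Ctrl library was set against the other 2. The DdBIC+Hemin libraries lay at 0.416 to 0.437 and the Ctrl libraries at 0.409 to 0.429 from one another, which overlap (exact permutation test, two-sided, p = 0.70, where 3 against 3 allows no p below 0.10). A treated library was set against 3 Ctrl libraries and a Ctrl library against 2. With 2 Ctrl libraries in every reference, a choice made after the data were seen, the ranges were 0.4389 to 0.4587 and 0.4093 to 0.4288 and did not overlap (exact p = 0.10, the smallest possible). On genes of at least 5 CPM, with the unequal references, the ranges were 0.2855 to 0.3151 and 0.2609 to 0.2795 and did not overlap (exact p = 0.10, the smallest possible). With a prior count of 0.5 in the log2 CPM the difference of the means reversed, and the ranges, 0.4813 to 0.514 and 0.5012 to 0.5203, overlapped (exact p = 0.30). Much of such a distance is spread between libraries. A measure added after the data were seen therefore subtracts that spread from the squared difference of the group means. On it DdBIC+Hemin stood 0.187 from Ctrl, with a range of 0.172 to 0.203 when each library was left out in turn. Hemin alone stood 0.121 away (0.0962 to 0.149) and DdBIC alone 0.454 (0.443 to 0.462). All of these distances share the Ctrl libraries. On the first principal component, which holds 32.1% of the variance, the DdBIC+Hemin libraries lay at -5.34 to -5.22, the Ctrl libraries at -18.0 to -16.4 and the DdBIC libraries at 40.8 to 45.6. On the second, with 9.38%, DdBIC+Hemin lay at 12.9 to 22.65 and Ctrl at -23.1 to -12.4, so the cotreated libraries separated from Ctrl on both axes.

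**Figure D2:**
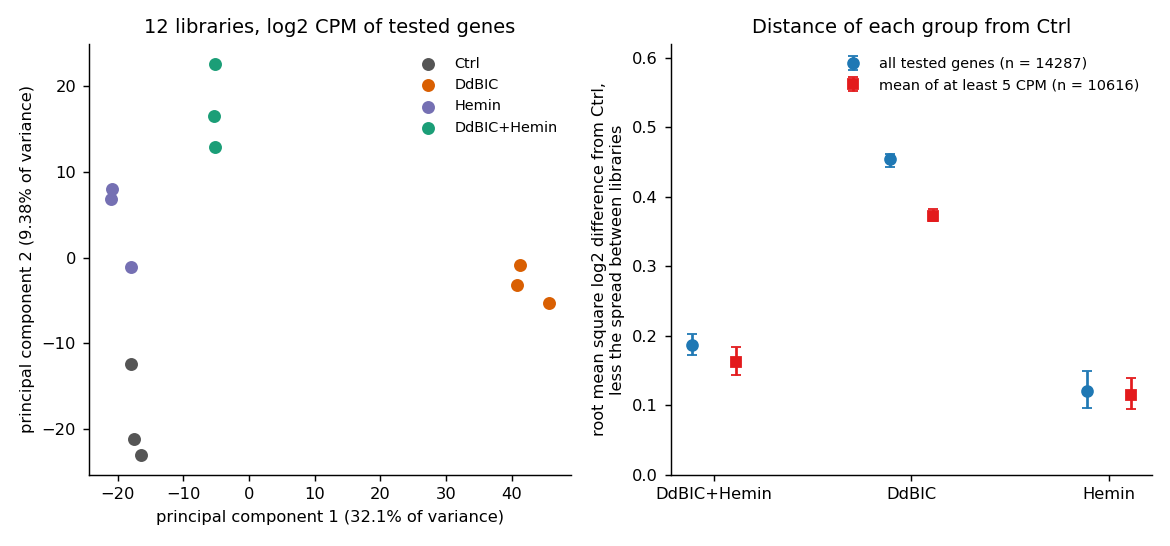
Left, the 12 libraries on the first 2 principal components of log2 CPM, coloured by group. Right, the root mean square log2 difference of each group from Ctrl after the spread between libraries is subtracted, for all 14287 tested genes (circles) and for the 10616 with at least 5 CPM (squares), with bars from the lowest to the highest value when 1 library is left out. DdBIC+Hemin at 0.187 lies between Hemin at 0.121 and DdBIC at 0.454.

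The largest change in abundant genes was in HMOX1 (chromosome 22, 35380361 to 35394214, GRCh38). It measured 7.99, 8.94 and 9.19 CPM in Ctrl and 188, 146 and 172 CPM in DdBIC+Hemin. The libraries of the 2 groups were far apart, and the log2 fold change was 4.27 (SE 0.11, adjusted p = 5.3e-09), a 19.4-fold rise. Hemin alone gave 62.2, 65.5 and 61.9 CPM and DdBIC alone 8.73, 7.26 and 7.47 CPM. DdBIC+Hemin was thus above hemin alone by 1.41 on the log2 scale (SE 0.09, adjusted p = 1.0e-05), although DdBIC alone differed from Ctrl by -0.16 (adjusted p = 0.26). Among 13 tested genes of heme degradation and transport HMOX1 was the sole gene called (7.69% against 12.4% of all tested genes). HMOX2, the constitutive heme oxygenase, differed by 0.08 with an interval of -0.06 to 0.21, and BLVRA, biliverdin reductase, by -0.03 (-0.20 to 0.13). The heme exporter FLVCR1 differed by -0.15 (-0.27 to -0.03, adjusted p = 0.11).

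Of 25 tested NRF2/BACH1 target genes 6 rose and 1 fell (28.0% against 12.4% of all tested genes). The list's median was 0.06 (0.0208 to 0.141 without 1 library), against 0.0013 for all tested genes. GCLM, the modifier subunit of the enzyme that limits glutathione synthesis, had 59.4, 50.6 and 49.8 CPM in Ctrl and 103, 104 and 103 CPM in DdBIC+Hemin, a rise of 0.96 (SE 0.09, adjusted p = 4.2e-05). Its catalytic partner GCLC did not pass the test, with a change of -0.03 (adjusted p = 0.92). FTH1, the ferritin heavy chain that oxidises and stores iron, rose by 0.72 (SE 0.05, adjusted p = 5.7e-06) from 661, 647 and 578 CPM to 1078, 974 and 1052 CPM. SRXN1, which repairs oxidised peroxiredoxins, rose by 0.27 (adjusted p = 0.00026), SLC7A11, the cystine importer, by 0.18 (adjusted p = 0.016) and the quinone reductase NQO1 by 0.14 (adjusted p = 0.021). The one gene that fell, the exporter ABCC2, changed by -0.25 (adjusted p = 0.0033). None of the 7 genes for NRF2, BACH1 and their partners was called by edgeR over all 12 libraries, BACH1 being nearest with 0.37 (interval 0.10 to 0.64, adjusted p = 0.081). With DESeq2 1 of the 7 was called. With edgeR 1 was called without Ctrl replicate 3, and 1 without DdBIC+Hemin replicate 3.

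GCLM, FTH1 and SRXN1 were higher in DdBIC+Hemin than in each of the other 3 groups. In GCLM the rise over hemin alone was 0.34 (adjusted p = 0.038) and over DdBIC alone 0.87 (adjusted p = 2.3e-05). In FTH1 the same differences were 0.24 (adjusted p = 0.012) and 0.43 (adjusted p = 6.1e-05), with libraries of 879, 867 and 874 CPM in hemin and 783, 763 and 755 CPM in DdBIC. In iron handling as a whole 5 of 15 tested genes rose and 1 fell (40.0% against 12.4% of all tested genes), and 3 in all were called without Ctrl replicate 1 or 3 or DdBIC+Hemin replicate 1. FTH1 is counted both there and among the NRF2/BACH1 targets. FBXL5, the iron-sensing ubiquitin ligase subunit, rose by 0.30 (SE 0.06, adjusted p = 0.011). Its cotreated libraries of 51.6, 54.2 and 53.5 CPM overlapped those of DdBIC alone at 52.9, 49.0 and 57.0 CPM. They lay below those of hemin alone at 56.2, 56.5 and 55.5 CPM, and FBXL5 in DdBIC+Hemin was not called against either single treatment. The ferritin light chain FTL rose by 0.18 (adjusted p = 0.019), a call that was lost in 4 of 19 alternatives (adjusted p 0.0030 to 0.070), without Ctrl replicate 1 or 3 or DdBIC+Hemin replicate 1 or 3. BEST1, which overlaps FTH1 on the opposite strand, rose by 1.13, and since the strand setting of the counting is not given, reads of the 2 genes cannot be told apart there.

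Of 9 tested genes of heme synthesis 2 fell, 22.2% against 12.4% of all tested genes, with a median of -0.07. ALAS1 had 123, 125 and 127 CPM in Ctrl and 77.7, 71.5 and 76.6 CPM in DdBIC+Hemin, a fall of 0.73 on the log2 scale (SE 0.03, adjusted p = 9.6e-07). It was lower still with hemin alone, at 53.9, 52.6 and 52.9 CPM, and higher with DdBIC alone, at 151, 152 and 148 CPM. The cotreated level therefore lay between the single treatments and differed from both, by 0.50 from hemin (adjusted p = 1.4e-05) and by -0.996 from DdBIC (adjusted p = 1.0e-08). CPOX, a later enzyme of the pathway, fell by 0.18 on the log2 scale (adjusted p = 0.0062), and the other 7 tested enzymes were not called.

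ATF4 and most of its tested targets of amino acid supply were higher in cotreated cells. Of 24 tested ATF4 targets of amino acid supply 15 rose and 1 fell, 66.7% called against 12.4% of all tested genes, with a median of 0.40. ATF4 itself rose from 457, 470 and 461 CPM to 623, 597 and 634 CPM, by 0.42 (SE 0.03, adjusted p = 8.5e-06). SESN2, a leucine-responsive inhibitor of mTORC1, had 40.4, 44.43 and 44.5 CPM in Ctrl and 104, 102 and 93.5 CPM in DdBIC+Hemin, a rise of 1.21 (SE 0.06, adjusted p = 9.7e-07). The secreted stress hormone GDF15 rose by 1.55 (SE 0.12, adjusted p = 1.4e-05) from 10.8, 12.3 and 10.5 CPM to 34.4, 27.3 and 36.6 CPM. STC2, a secreted glycoprotein, went from 33.7, 32.6 and 30.5 CPM to 60.2, 63.2 and 60.9 CPM, a rise of 0.93 (SE 0.06, adjusted p = 2.5e-06). For STC2 the 3 treated groups overlapped, with 57.7 to 63.4 CPM in DdBIC and 56.1 to 61.7 CPM in hemin. The pseudokinase TRIB3, which restrains ATF4, rose by 1.16 (SE 0.28, adjusted p = 0.029), but its cotreated libraries spread from 144 to 237 CPM and the call was lost in 5 of 19 alternatives (adjusted p 0.00097 to 0.098), each of which left out 1 library, Ctrl replicate 1, 2 or 3 or DdBIC+Hemin replicate 1 or 3.

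The enzymes of the list moved by smaller steps. ASNS, asparagine synthetase, rose by 0.53 (adjusted p = 7.6e-06), CTH, which makes cysteine from cystathionine, by 0.67 (adjusted p = 0.0028), MTHFD2 of the mitochondrial folate cycle by 0.41 (adjusted p = 6.1e-06), PSAT1 and PHGDH of serine synthesis by 0.20 and 0.12. ASNS is named here because its promoter carries a motif described further on. Its libraries measured 126, 122 and 122 CPM in Ctrl, 151, 152 and 155 CPM in DdBIC, 155, 159 and 154 CPM in hemin and 186, 180 and 167 CPM in DdBIC+Hemin, so the cotreated libraries were above all 9 others. The single treatments were also displaced in this list against the same Ctrl libraries. DdBIC alone, with 37.2% of all tested genes called, had 11 members higher and 2 lower (median 0.24), and hemin alone, with 4.06% called, had 10 higher and 1 lower (median 0.31). The exception was ATF5, a transcription factor of the same family, which fell by 0.63 on the log2 scale (SE 0.05, adjusted p = 2.9e-05), from 57.6, 56.3 and 58.5 CPM to 35.4, 39.9 and 36.3 CPM. ATF5 was at 56.1 to 59.1 CPM with DdBIC and 54.3 to 60.5 CPM with hemin, and other genes overlap its locus.

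Of 13 tested amino acid transporters 6 rose and 1 fell (53.8% against 12.4% of all tested genes). SLC3A2, the heavy chain of several exchangers, rose by 0.45 (adjusted p = 9.7e-05) and the arginine importer SLC7A1 by 0.26 (adjusted p = 7.6e-05), while the glutamate transporter SLC1A1 fell by 0.42 on the log2 scale (adjusted p = 0.0082). Of 20 aminoacyl-tRNA synthetases, which charge tRNAs, 8 rose and 0 fell (40.0% against the same 12.4%), at most by 0.28 in TARS (SE 0.03, adjusted p = 9.6e-05) and GARS (SE 0.02, adjusted p = 1.6e-05), and 19 of the 20 were near Ctrl by the interval rule. In the core of the integrated stress response 8 of 18 rose and 2 fell (55.6% against 12.4%). The lists share members, so their counts are not separate: TRIB3 and ATF5 are also among the ATF4 targets, and ATF3 among the immediate-early factors. PPP1R15A (GADD34), which recruits the phosphatase of eIF2α, rose by 1.07 (SE 0.05, adjusted p = 1.0e-06), from 150, 162 and 156 CPM to 317, 310 and 353 CPM. CEBPB rose by 0.67 (adjusted p = 0.00015) and CEBPG, a dimer partner of ATF4, by 0.55 (adjusted p = 5.7e-05). DDIT3 (CHOP) had 13.1, 9.37 and 15.8 CPM in Ctrl and 18.2, 26.2 and 28.0 CPM in DdBIC+Hemin, a difference of 0.92 that did not pass the test (SE 0.27, adjusted p = 0.055) but did in 4 of 19 alternatives. Its locus overlaps MARS. EIF2AK3 (PERK) differed by 0.13 (adjusted p = 0.20) and EIF2S1, the eIF2α subunit, by 0.10 (adjusted p = 0.19), and EIF2AK4 (GCN2), the kinase that senses uncharged tRNA, fell by 0.15 on the log2 scale (adjusted p = 0.0023).

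Promoter sequence was examined for these groups because each is tied to a known DNA element. Windows came from RefSeq (GRCh38.p14), 250 bases before each annotated start, for 10946 of the 14287 tested genes and 16056 windows. Searched on both strands were TGACNNNGC, the core of the antioxidant response element, TGATGNAA, the core bound by C/EBP-ATF dimers, and GAANNTTC, the core of the heat shock element. No 2 of them can match at the same start on one strand. TGATGNAA was held by 3.30% of the windows of genes called higher, 0.702% of those called lower and 1.85% of all windows. TGACNNNGC was held by 13.0%, 10.9% and 11.5%, and GAANNTTC by 4.56%, 2.99% and 4.33%. Among list members GAANNTTC was in 10 of 27 windows of the cytosolic heat shock genes, TGATGNAA in 3 of 27 windows of the ATF4 targets, 3 of 24 of the stress response core and 3 of 21 of the tRNA synthetases, and TGACNNNGC in 6 of 23 windows of the NRF2/BACH1 targets. In the other lists TGACNNNGC was in 5 of 21 windows of the tRNA synthetases, 4 of 20 of the amino acid transporters and 2 of 18 of iron handling. It was also in 3 of 27 windows of the ATF4 targets, 2 of 24 of the stress response core and 3 of 27 of the heat shock genes. TGATGNAA was in 1 of 20 windows of the amino acid transporters. Of the 15 largest rises at 5 CPM or more 13 had windows, with TGACNNNGC in 0 of 21, TGATGNAA in 2 and GAANNTTC in 1. Of the 15 largest falls 13 had windows, with TGACNNNGC in 4 of 21 and the other cores in 0. These shares are descriptions and were not tested. The windows printed here are examples, 1 match for each of some of the called members, 30 bases each, 5′ to 3′ along the gene's strand, with the matched letters in capitals, for the genes whose values are given here. Where annotated transcripts start further upstream the bases also lie in an exon, as GENCODE 29 has for GCLM, ASNS, GARS and the downstream HSPA8 match.
GCLM, chr1:93909445-93909474, minus strand, antioxidant core on the opposite strand, 34 to 26 bases before the start: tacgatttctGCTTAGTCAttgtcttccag
FBXL5, chr4:15655465-15655494, minus strand, antioxidant core on the opposite strand, 127 to 119 bases before: ctctgcgcgcGCCCGGTCAcgtgggccgca
ASNS, chr7:97872458-97872487, minus strand, C/EBP-ATF core, 68 to 61 bases before: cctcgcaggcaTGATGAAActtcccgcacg
CEBPG, chr19:33374060-33374089, plus strand, C/EBP-ATF core, 42 to 35 bases before: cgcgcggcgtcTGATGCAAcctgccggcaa
GARS, chr7:30594834-30594863, plus strand, C/EBP-ATF core on the opposite strand, 33 to 26 bases before: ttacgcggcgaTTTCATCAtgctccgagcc
HSPA8, chr11:123062168-123062197, minus strand, heat shock core, 50 to 43 bases before: ggccccttctgGAAGGTTCtaagatagggt
HSPA1A, chr6:31815426-31815455, plus strand, heat shock core, 106 to 99 bases before: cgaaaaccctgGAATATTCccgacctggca
HSPA1B, chr6:31827622-31827651, plus strand, heat shock core, 105 to 98 bases before: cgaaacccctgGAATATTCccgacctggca

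Some of the immediate-early and cytokine genes were higher than in untreated cells after cotreatment, with 68.0% and 52.0% of the lists called against 12.4% of all tested genes, and 8 and 12 genes not called. Of 25 tested immediate-early transcription factors 13 were higher than Ctrl and 4 lower, with a median of 0.63 (0.41 to 0.69 without 1 library). DdBIC alone had 21 higher and 1 lower with a median of 2.09 against the same Ctrl libraries, where 37.2% of all tested genes were called. In DdBIC+Hemin against DdBIC, in which 4559 genes were called (31.9%), 21 of the 25 were lower and 0 higher. JUN, a subunit of AP-1, had 42.0, 39.1 and 41.6 CPM in Ctrl, 177, 148 and 159 CPM in DdBIC+Hemin and 2242, 1720 and 2033 CPM in DdBIC. Against Ctrl it rose by 1.98 (SE 0.09, adjusted p = 1.8e-06) and hemin alone, at 68.9, 68.0 and 65.6 CPM, also lay above Ctrl. EGR1 had 23.8, 30.3 and 28.2 CPM in Ctrl and 50.4, 50.6 and 59.3 CPM in DdBIC+Hemin (log2 fold change 0.96, adjusted p = 0.00087), against 2878, 2189 and 2412 CPM with DdBIC. NR4A1, which encodes the receptor Nur77, rose by 0.94 (SE 0.05, adjusted p = 1.1e-06), from 204, 199 and 208 CPM to 399, 387 and 389 CPM, against 1511 to 1634 CPM with DdBIC. Hemin alone left NR4A1 at 183 to 213 CPM, which overlaps Ctrl. ATF3 rose by 1.74 (SE 0.36, adjusted p = 0.014; 0.056 at most, without Ctrl replicate 2 or 3). FOS rose by 1.23 (SE 0.32, adjusted p = 0.035), with Ctrl libraries spread from 2.29 to 5.12 CPM and the call lost in 8 of 19 alternatives (adjusted p 0.0022 to 0.097), among them those without Ctrl replicate 1 or 2, Hemin replicate 1 or 3 or DdBIC+Hemin replicate 2 or 3.

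The 4 members that fell were ID3, ID1, NR4A2 and HES1. ID3, an inhibitor of basic helix-loop-helix factors and a target of BMP signalling, had the largest fall among named genes, by 2.20 on the log2 scale (SE 0.12, adjusted p = 2.0e-06), from 19.1, 19.97 and 19.3 CPM to 3.80, 4.95 and 3.94 CPM. Its cotreated libraries overlapped those of hemin alone at 4.45, 3.36 and 3.74 CPM, while DdBIC alone was at 14.5, 12.4 and 12.6 CPM. ID1 fell by 0.81 on the log2 scale (adjusted p = 3.5e-05).

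Of 25 tested cytokine and NF-kB genes 13 were higher than Ctrl and 0 lower (median 0.58), against 24 higher with DdBIC alone (median 2.43), where 37.2% of all tested genes were called. CXCL8, a chemokine for neutrophils, had 9.03, 8.66 and 9.75 CPM in Ctrl, 35.7, 20.3 and 24.7 CPM in DdBIC+Hemin and 713, 598 and 703 CPM in DdBIC. Its rise over Ctrl was 1.56 (SE 0.19, adjusted p = 0.00079) and its difference from DdBIC was -4.64 (adjusted p = 2.6e-07). IL11 rose by 1.09 (SE 0.06, adjusted p = 2.0e-06), from 27.2 to 29.9 CPM in Ctrl to 57.5 to 63.8 CPM. TNFAIP3, the inhibitor A20 of NF-kB signalling, rose by 1.23 (SE 0.12, adjusted p = 7.2e-05) and BIRC3, an inhibitor of apoptosis, by 1.55 (SE 0.21, adjusted p = 0.00064), the latter with 0.645 to 1.15 CPM in Ctrl and 2.76 to 2.89 CPM in DdBIC+Hemin. IL6 and CSF2 were called at under 1 CPM in every Ctrl and DdBIC+Hemin library, so a small number of reads carries their changes of 1.51 (SE 0.29) and 2.06 (SE 0.40).

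Feedback regulators of growth signalling split. Of 30 tested 12 rose and 5 fell (56.7% against 12.4% of all tested genes), with a median of 0.07 (0.0195 to 0.142 without 1 library). Phosphatases that act on stress kinases were among the rises: DUSP10 went from 14.2, 16.2 and 13.9 CPM to 42.7, 34.1 and 43.1 CPM (log2 fold change 1.44, SE 0.10, adjusted p = 5.7e-06), and DUSP8 rose by 1.61 (SE 0.17, adjusted p = 0.00011). The EGFR ligand AREG rose by 1.43 (SE 0.13, adjusted p = 4.0e-05). Falls were in SPRY1 (-1.24, SE 0.27, adjusted p = 0.011), a receptor tyrosine kinase inhibitor at 3.88 CPM or less in every Ctrl and DdBIC+Hemin library, and in ETV4 (-0.39, SE 0.04, adjusted p = 7.8e-05), a transcription factor downstream of ERK, with SPRY4, SPRED1 and ETV5 at -0.31, -0.28 and -0.12.

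Of 25 tested ER chaperones and unfolded protein response genes 8 rose and 0 fell (32.0% against 12.4% of all tested genes), with a median of 0.10. DdBIC alone, with 37.2% of all tested genes called, had 17 higher and 1 lower (median 0.41). HSPA5 (BiP), the main ER chaperone, had 930, 917 and 932 CPM in Ctrl, 1224, 1167 and 1193 CPM in DdBIC+Hemin and 2468 to 3095 CPM in DdBIC. The rise over Ctrl was 0.37 (SE 0.06, adjusted p = 0.0030), and over hemin alone, at 1044 to 1064 CPM, it was 0.18 (adjusted p = 0.12). DNAJB9, a co-chaperone that IRE1 signalling raises, rose by 0.77 (SE 0.06, adjusted p = 1.7e-05), ERN1, which encodes IRE1, by 0.49 (adjusted p = 0.0025). Of the 20 cytosolic heat shock genes 5 rose and 0 fell (25% against 12.4%), with 3 called without Ctrl replicate 2. HSPA8, the constitutive HSC70, rose by 0.38 (SE 0.04, adjusted p = 5.4e-05) to 3179, 2952 and 3282 CPM from 2410, 2457 and 2386 CPM and was above each of the other 3 groups. HSPA1A and HSPA1B, the inducible HSP70 genes, rose by 0.44 and 0.47 (adjusted p = 0.0086 and 0.0043). The 2 are near-identical copies, so how reads were shared between them is uncertain.

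Genes called in the same direction against Ctrl, DdBIC and hemin were taken as lying outside all other groups. Whether the changes of the single treatments add up to such a level was not tested. There were 44 above all 3 other groups (0.308% of tested genes) and 94 below them (0.658%). In DdBIC+Hemin against hemin 971 genes were called in all (6.80%). Beside HMOX1, GCLM and FTH1, the largest rises at 5 CPM or more were in UPRT, a homologue of uracil phosphoribosyltransferases, and SPOCD1. UPRT rose by 0.80 (SE 0.19, adjusted p = 0.017) from 3.15 to 4.53 CPM to 5.69 to 7.14 CPM, and its call was lost in 4 of 19 alternatives (adjusted p 0.0014 to 0.071), without Ctrl replicate 1 or 3 or DdBIC+Hemin replicate 1 or 3. SPOCD1 rose by 0.67 (SE 0.11, adjusted p = 0.0024). Of more abundant genes, the cytoplasmic actin ACTG1 rose by 0.62 (SE 0.06, adjusted p = 6.6e-05), from 1359, 1518 and 1381 CPM to 2183, 2053 and 2314 CPM, and was above each of the 3 other groups. In that list of 16 tested YAP and SRF targets 5 rose and 2 fell (43.8% against 12.4% of all tested genes). The falls were CTGF, a matricellular protein, by 0.50 on the log2 scale (SE 0.06, adjusted p = 0.00025), and the muscle ankyrin repeat protein ANKRD1 by 0.63 (SE 0.13, adjusted p = 0.0077; 0.055 with only the 6 libraries), both also below each other group. The count of 44 depended on single libraries, with 28 and 29 without Ctrl replicates 1 and 2, 22, 28 and 24 without Hemin replicates 1, 2 and 3, and 24 and 27 without DdBIC+Hemin replicates 1 and 3. The count of 94 became 58 and 57 without Hemin replicates 1 and 3 and 61 without DdBIC+Hemin replicate 1.

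Of the 15 largest falls at 5 CPM or more, 5 were below every other group. SMAD6, an inhibitor of BMP signalling, had 9.60, 10.2 and 10.6 CPM in Ctrl, 6.62, 5.02 and 4.94 CPM in DdBIC, 7.41, 7.72 and 7.95 CPM in hemin and 3.53, 4.08 and 4.33 CPM in DdBIC+Hemin. It fell by 1.35 on the log2 scale (SE 0.12, adjusted p = 3.8e-05). TWIST1, a transcription factor of neural crest and mesenchyme, fell by 0.96 (SE 0.07, adjusted p = 7.6e-06) from 28.3, 29.2 and 28.3 CPM to 13.6, 16.2 and 14.5 CPM. DLX2, a homeobox factor of neural crest and forebrain, fell by 0.92 (SE 0.09, adjusted p = 7.1e-05) from 41.2, 46.4 and 45.5 CPM to 20.2, 24.3 and 26.0 CPM. For TWIST1 and DLX2 both single treatments were also below Ctrl, at 17.9 to 19.9 CPM and 32.4 to 37.0 CPM over their 6 libraries. MYLIP, a ubiquitin ligase for the LDL receptor, fell by 0.95 on the log2 scale (SE 0.06, adjusted p = 5.7e-06) from 18.5, 17.7 and 18.7 CPM to 9.73, 9.72 and 9.03 CPM. For MYLIP neither single treatment was called against Ctrl, with 0.16 for DdBIC (adjusted p = 0.063) and -0.24 for hemin (adjusted p = 0.067). The fifth, the protocadherin PCDH18, fell by 1.18 on the log2 scale (SE 0.18, adjusted p = 0.0013), with cotreated libraries from 2.78 to 5.14 CPM.

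A further 5 genes below Ctrl and hemin alone were not called against DdBIC alone. GAS1, a co-receptor of Hedgehog ligands, fell by 1.10 on the log2 scale (SE 0.07, adjusted p = 3.6e-06) from 19.4, 19.8 and 19.98 CPM to 9.19, 9.47 and 8.94 CPM, and DdBIC alone stood at 9.58, 7.97 and 8.63 CPM. PTCH1, the Hedgehog receptor and target gene, fell by 0.98 (SE 0.13, adjusted p = 0.00068) to 36.5, 38.7 and 38.8 CPM, overlapping DdBIC alone at 34.8, 38.5 and 35.7 CPM. The stem cell factor SOX2, the protocadherin PCDH7 and the neuronal membrane protein SLITRK5 fell by 1.06, 1.05 and 0.90 on the log2 scale (adjusted p = 2.4e-05, 4.7e-05 and 0.00021). For SOX2 and PCDH7 every cotreated library, at 4.15 to 4.72 and 4.97 to 5.40 CPM, was below every DdBIC library, at 4.80 to 5.41 and 5.86 to 6.18 CPM. In these 5 genes DdBIC+Hemin differed from DdBIC by -0.20 to 0.10 (adjusted p 0.11 to 0.74) and was below hemin alone in each, by 0.58 to 0.84 on the log2 scale (adjusted p 0.00031 to 0.021). NFATC4, a calcium-regulated transcription factor, fell by 1.04 on the log2 scale (SE 0.19, adjusted p = 0.0042), with cotreated libraries from 3.28 to 5.54 CPM against 7.39 to 10.4 CPM, and was below DdBIC alone by 0.62 (adjusted p = 0.027). The calls of JRK (-1.82, SE 0.48, adjusted p = 0.039) and SLC35A4 (-0.996, SE 0.26, adjusted p = 0.035) were unstable. JRK was lost in 10 of 19 alternatives (adjusted p 0.00060 to 0.11), among them those without any 1 of the Ctrl, Hemin or DdBIC+Hemin replicates. SLC35A4, which overlaps APBB3, was lost in 9 of 19 (0.0014 to 0.11), among them those without Ctrl replicate 1 or 3, Hemin replicate 1 or 3 or any DdBIC+Hemin replicate. FAM110A rose by 2.73 (SE 0.75, adjusted p = 0.046), with 1.25 to 2.57 CPM in Ctrl, 10.5 to 11.7 CPM in DdBIC+Hemin and DdBIC libraries that ranged from 1.25 to 11.1 CPM. It was lost in 11 of 19 (0.0024 to 0.14), among them those without any Ctrl or DdBIC+Hemin replicate, DdBIC replicate 1 or 2 or Hemin replicate 1 or 3.

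The other rises among the 15 largest were in genes outside the lists. CREB5, a transcription factor of the CREB family, went from 3.08, 3.30 and 3.15 CPM to 10.7, 8.43 and 10.2 CPM (log2 fold change 1.62, SE 0.14, adjusted p = 2.6e-05), against 22.2 to 26.8 CPM with DdBIC. PTPRH, a receptor tyrosine phosphatase, rose by 1.14 (SE 0.07, adjusted p = 4.5e-06) from 10.3, 10.4 and 9.31 CPM to 22.2, 21.1 and 23.0 CPM. Both lay between Ctrl and DdBIC with no overlap with either. For Ctrl the rule that named these genes required it, and it held for 1769 of the 1771 called genes.

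All 5 tested genes of the metallothionein and zinc list were called, 3 lower and 2 higher, where 12.4% of all tested genes were called. SLC30A1, the zinc exporter of the plasma membrane, had 33.2, 29.9 and 32.6 CPM in Ctrl, 65.3, 58.3 and 67.4 CPM in DdBIC, 12.9, 16.2 and 14.1 CPM in hemin and 15.7, 15.4 and 16.1 CPM in DdBIC+Hemin. It fell by 1.02 on the log2 scale (SE 0.08, adjusted p = 1.8e-05), opposite in direction to DdBIC alone. MT2A, a metallothionein that buffers zinc and copper, fell by 0.78 (SE 0.04, adjusted p = 1.0e-06) from 309, 320 and 306 CPM to 175, 179 and 190 CPM, where hemin alone had 182, 184 and 181 CPM and DdBIC alone 578 to 634 CPM. MT1X fell by 0.72 (SE 0.10, adjusted p = 0.00063). The zinc importer SLC39A10 rose by 0.58 (SE 0.13, adjusted p = 0.013), lost without Ctrl replicate 2 and with only the 6 libraries fitted (adjusted p up to 0.074), and MTF1, the zinc-sensing factor of metallothionein genes, by 0.17 (adjusted p = 0.0089; 0.0504 with only the 6 libraries, where 3 of the 5 were called). The other 7 listed genes did not pass the filter on low counts.

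Of 23 tested genes of cholesterol synthesis and uptake 8 fell and 0 rose (34.8% against 12.4% of all tested genes), with a median of -0.09 (-0.143 to -0.0605 without 1 library). Without Ctrl replicate 1 or DdBIC+Hemin replicate 2 the number that fell was 5. SQLE, squalene epoxidase, fell by 0.32 on the log2 scale (SE 0.04, adjusted p = 0.00074), from 43.9, 42.5 and 45.4 CPM to 34.9, 34.1 and 36.3 CPM. MSMO1, a later enzyme of the pathway, fell by 0.44 (SE 0.10, adjusted p = 0.015; 0.060 without DdBIC+Hemin replicate 2). DdBIC alone had 4 of the 23 higher and 10 lower (median -0.20), hemin alone had 5 higher and 0 lower, and against hemin alone 11 were lower in DdBIC+Hemin and 0 higher, where 37.2%, 4.06% and 6.80% of all tested genes were called in these comparisons.

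In several large lists few genes were called. Over all tested genes 12.4% were called and 65.1% lay near Ctrl, or 82.6% of those at 5 CPM or more. Of 53 tested genes for succinate dehydrogenase and the other nuclear respiratory subunits 0 were called by edgeR, 50 lay near Ctrl and the median was -0.01. With DdBIC alone 22 were lower, where 37.2% of all tested genes were called in either direction. In that list 2 were called without DdBIC+Hemin replicate 2, 1 with scaling by library size only and 0 by DESeq2. SDHA, SDHC and SUCLG1, enzymes of the citric acid cycle and respiratory chain, differed by 0.08, 0.003 and 0.05 (adjusted p = 0.17, 0.97 and 0.59). Of 71 cytosolic ribosomal protein genes 70 were near Ctrl and 1 was called, RPL12 with 0.12, and of 31 proteasome genes 30 were near Ctrl and 1 was called, PSMC4 with 0.10. The call of RPL12 was lost in 7 of 19 alternatives (adjusted p 0.012 to 0.11), among them those without Ctrl replicate 1 or 3 or DdBIC+Hemin replicate 1 or 3, and that of PSMC4 in 5 (0.0055 to 0.105), among them those without Ctrl replicate 1 or 3 or DdBIC+Hemin replicate 1. Without DdBIC+Hemin replicate 2 the ribosomal count was 2, and without DdBIC replicate 3 the proteasome count was 2. The 20 genes of mitochondrial proteases and dynamics were all near Ctrl and 1 was called, LONP1 with 0.12 (adjusted p = 0.027). The count was 0 without Ctrl replicate 1 or DdBIC+Hemin replicate 1 or 2 and 2 without DdBIC replicate 1. The call of LONP1 was lost in 7 of 19 alternatives (adjusted p 0.0095 to 0.104), among them those without Ctrl replicate 1 or 3 or any DdBIC+Hemin replicate. Among the 20 genes OMA1, a stress-activated protease, differed by 0.01 (adjusted p = 0.95) and OPA1, its substrate in the inner membrane, by 0.09 (adjusted p = 0.26). Of 237 tested ZNF genes on chromosome 19, 2 were higher and 3 lower with a median of 0.0042 (2.11% called), and 123 (51.9%) lay near Ctrl, a smaller share than over all tested genes. DdBIC alone had 111 higher and 2 lower with a median of 0.44. The 5 zinc finger calls became 2, 3 and 1 without Ctrl replicates 1, 2 and 3 and 1 and 2 without DdBIC+Hemin replicates 1 and 3.

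Of the 13 protein genes of mitochondrial DNA 3 were higher and 3 lower (46.2% against 12.4% of all tested genes). Near Ctrl lay 11 of them (84.6%), against 65.1% of all tested genes and 82.6% of those at 5 CPM or more. MT-ND6, the one protein gene encoded on the light strand, had 256, 263 and 307 CPM in Ctrl and 168, 186 and 172 CPM in DdBIC+Hemin, a fall of 0.65 on the log2 scale (SE 0.11, adjusted p = 0.0039). DdBIC alone stood at 125, 160 and 125 CPM and hemin alone at 257, 299 and 257 CPM. MT-ND5 and MT-ND3 fell by 0.39 and 0.32 (adjusted p = 0.025 and 0.028), and MT-CO2, MT-ND4L and MT-ND4 rose by 0.30, 0.24 and 0.23. MT-ND3, MT-ND5, MT-CO2 and MT-ND4L lost their calls in 4, 5, 11 and 11 of 19 alternatives. The 6 calls became 3, 1 and 1 without Ctrl replicates 1, 2 and 3, 3 without any Hemin replicate, and 1, 2 and 2 without DdBIC+Hemin replicates 1, 2 and 3, and MT-ND6 was called in all 19 alternatives. Transcripts of the mitochondrial genome are cut from shared precursors, and MT-ND4L overlaps MT-ND4.

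The pyroptosis list held 20 genes, of which 14 were tested and 0 called by edgeR, against 12.4% of all tested genes. The same count held in all 19 alternatives, DESeq2 included. Whether 0 of 14 differs from that share was not tested. Near Ctrl lay 10 of the 14 (71.4% against 65.1% of all tested genes). GSDMD, the main executioner gasdermin, differed by -0.08 (interval -0.27 to 0.11) and CASP4 by 0.15 (0.01 to 0.28, adjusted p = 0.16). NLRP3 differed by 0.65 with an interval of 0.07 to 1.23 (adjusted p = 0.14), at a mean of 0.503 CPM in Ctrl. GSDMC and GZMB, which the study works on, were under the filter: GSDMC had 2 counts over the 3 Ctrl libraries and 8 over the 3 DdBIC+Hemin libraries, and GZMB had 12 and 7, so no difference could be read from them at this depth. In the BCL2 family 1 of 14 rose and 1 fell, 14.3% against 12.4% of all tested genes. PMAIP1 (NOXA), which antagonises MCL1, rose by 0.56 (SE 0.06, adjusted p = 0.00023), from 40.2, 35.0 and 37.8 CPM to 53.4, 60.3 and 52.5 CPM, and BCL2 fell by 0.26 on the log2 scale (adjusted p = 0.020; up to 0.060 in the 5 of 12 fits that lacked 1 library and lost it, Ctrl replicate 1, 2 or 3 or DdBIC+Hemin replicate 1 or 3). Of 18 p53 targets 4 rose and 1 fell (27.8% against 12.4%), led by the kinase PLK3 with 0.73 (SE 0.05, adjusted p = 9.6e-06) and the cyclin-dependent kinase inhibitor CDKN1A with 0.52 (SE 0.07, adjusted p = 0.00054).

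Of 25 replication genes 4 rose and 2 fell, and of 24 mitosis genes 1 rose and 5 fell, 24.0% and 25% called against 12.4% of all tested genes, and every gene of both lists lay near Ctrl. The 6 replication calls became 2, 3 and 2 without Ctrl replicates 1, 2 and 3, 3 without DdBIC replicate 2 or Hemin replicate 3, and 2, 2 and 3 without DdBIC+Hemin replicates 1, 2 and 3. CENPF, a kinetochore protein, fell by 0.23 on the log2 scale (SE 0.03, adjusted p = 0.00091) and TOP2A, topoisomerase II alpha, by 0.17 (SE 0.04, adjusted p = 0.0093). In glycolysis and hypoxia 1 of 29 tested genes rose and 2 fell, 10.3% against the same 12.4%. VEGFA rose by 0.92 (SE 0.18, adjusted p = 0.0081; 0.060 with only the 6 libraries), with cotreated libraries of 77.1, 46.5 and 53.9 CPM against 27.4, 32.6 and 33.6 CPM, and the vasodilator peptide ADM fell by 0.53 on the log2 scale (SE 0.10, adjusted p = 0.0047). HK2, a hexokinase, differed by 0.06 (adjusted p = 0.42). In autophagy 2 of 20 fell, 10% against 12.4% of all tested genes, the kinase ULK1 by 0.25 and the cargo receptor NBR1 by 0.24 (adjusted p = 0.0076 and 0.00038).

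Of 12 tested melanocyte genes, 8.33% of them called against 12.4% of all tested genes, 0 rose and 1, the endothelin receptor EDNRB, fell by 0.52 on the log2 scale (SE 0.15, adjusted p = 0.039), a call lost in 7 of 12 fits without 1 library (every Ctrl and DdBIC+Hemin replicate and Hemin replicate 3, adjusted p up to 0.13). SOX10 differed by -0.09 (interval -0.19 to 0.01) and MITF by -0.41 (-0.92 to 0.11). Of 10 genes of dedifferentiated melanoma 3 rose and 2 fell, 50% against 12.4%, among them the secreted ligand WNT5A with -0.62 (SE 0.04, adjusted p = 6.4e-06), from 66.8, 67.5 and 65.9 CPM to 44.1, 42.8 and 43.5 CPM. Among markers of other cell types, the summed level of 6 fibroblast genes ran from 14.97 to 17.2 CPM in Ctrl and 14.2 to 14.8 CPM in DdBIC+Hemin and did not overlap, with 0 of 5 tested members called, and its part in any result was not tested. The other sums overlapped. That of 5 leukocyte genes ran from 2.15 to 3.23 CPM in Ctrl and 2.24 to 2.80 CPM in DdBIC+Hemin, that of 4 endothelial genes from 4.74 to 6.95 CPM and 5.31 to 6.36 CPM, and that of 5 keratinocyte genes from 53.1 to 56.3 CPM and 50.1 to 57.9 CPM. Of these the endothelial cadherin CDH5 was called, with 2.16 (SE 0.63, adjusted p = 0.048) at 0 to 0.248 CPM in Ctrl and 0.544 to 0.746 CPM in DdBIC+Hemin, and lost in 13 of the 17 alternatives that tested it (adjusted p 0.040 to 0.13), among them those without Ctrl replicate 2 or 3, Hemin replicate 1 or 3 or any DdBIC or DdBIC+Hemin replicate.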

How the data were processed

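Gene counts from RNA-seq of A375 cells in 12 libraries (Ctrl, DBIC, Hemin and DBIC+Hemin, 3 each) were used as deposited. The authors made these raw counts per gene, and the submitters' processing notes name Trim Galore, Subread, featureCounts and hg38; versions, annotation and strand setting are not given in the sources used here. Another 24 columns of length-normalised values were not used. Whole-transcriptome contrasts were fitted with edgeR 4.0.16 (R 4.3.3): filterByExpr, TMM factors, robust quasi-likelihood fit with 1 mean per group over 12 libraries (8 residual degrees of freedom), Benjamini-Hochberg adjustment and a threshold of 0.05. CPM were scaled by TMM. The procedure was tested on data simulated under its own model with the spread of these libraries. That check does not show how well the model holds for the real counts. Alternatives were DESeq2 1.42.0, other scalings, filters, margins and prior counts, only the 6 libraries, a replicate block, and leaving out each library. Total counts of 37951275 to 44358912 set the precision, and 3 counts correspond to at most 0.079 CPM.

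The comparison, gene lists and named genes were chosen with earlier results of these data known. Genes were named by rule: HMOX1; the 15 largest rises and 15 largest falls among called genes averaging 5 CPM or more whose groups did not overlap; the 5 largest rises and falls outside all other groups; up to 4 called members of each list and up to 2 of the opposite direction; and genes the study works on. Genes named beyond this rule, such as ASNS, EGR1, CEBPG, MTHFD2, ID1, GCLC, BACH1, MT-ND4, GSDMD and SOX10, were chosen after their values were seen.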

Additional observations from a re-analysis of the deposited data

How the results depend on the processing

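Called genes in DdBIC+Hemin against Ctrl numbered 2040 with DESeq2, 1763 with upper-quartile factors, 1876 by library size only, 1639 with no filter, 1811 with at least 10 counts in every library, 1246 with only the 6 libraries and 1218 to 1758 without 1 library, against 1771. Requiring also a change of 1 or more on the log2 scale, in either direction, left 82. Replicate numbers are shared by the groups but did not pair the libraries (correlations of same-numbered deviations from -0.046 to 0.081), and with the replicate block 1500 genes were called. Genes above every other group numbered 24 by library size only, 26 with the replicate block and 22 to 40 without 1 library, against 44, and those below numbered 57 to 89 without 1 library, against 94. A margin of 0.25 placed 5057 genes near Ctrl, against 9296 with 0.5. The difference in distance between DdBIC+Hemin and Ctrl libraries was 0.00453 and became -0.0163 at a prior count of 0.5 (exact permutation p = 0.30), with the cause not tested. Further measures were chosen after seeing the data. With 2 Ctrl libraries in every reference the difference was 0.0269 (exact p = 0.10), and the distance of group means was 0.163 on genes of at least 5 CPM and 0.172 to 0.203 without 1 library, against 0.187. Without genes that span over 1 log2 unit within Ctrl or DdBIC+Hemin, also chosen afterwards, 1752 were called. Of 128 called named genes 87 were called under every alternative that tested them (19, or 18 for IL6 and CSF2). The genes that could not be placed had a median of 1.59 CPM.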

Other observations

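The following genes were picked, after their values were seen, from the 94 below every other group. TLE4, a corepressor of the Groucho family, had 135, 139 and 131 CPM in Ctrl and 80.5, 80.2 and 85.1 CPM in DdBIC+Hemin, a fall of 0.72 on the log2 scale by edgeR (SE 0.04, adjusted p = 1.0e-06), while DdBIC and hemin alone ranged from 103 to 109 CPM. GLI3, a transcription factor of Hedgehog signalling, fell by 0.70 (SE 0.06, adjusted p = 3.8e-05) and the POU factor POU3F2 by 0.67 (SE 0.04, adjusted p = 2.4e-06). NR2F2, an orphan nuclear receptor, fell by 0.53 (SE 0.04, adjusted p = 8.5e-06), with hemin alone at 160 to 168 CPM and Ctrl at 157 to 163 CPM. ACACA, the first enzyme of fatty acid synthesis, fell by 0.45 (SE 0.03, adjusted p = 1.0e-05). No test of these genes as a group was made.

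Among the 44 genes above every other group, also picked after their values were seen, the cytoplasmic actin ACTB rose by 0.40 (SE 0.02, adjusted p = 2.4e-06), from 4835, 4894 and 4798 CPM to 6367, 6442 and 6355 CPM. MAT2A, which makes S-adenosylmethionine, rose by 0.40 (SE 0.02, adjusted p = 2.6e-06). In the circadian clock list 3 of 16 tested genes rose and 1 fell (25% against 12.4% of all tested genes), led by the repressor NFIL3 with 0.82 (SE 0.09, adjusted p = 0.00022) and ARNTL (BMAL1) with 0.55 (SE 0.10, adjusted p = 0.0037); the 4 calls became 2 without Ctrl replicate 1 or 3 or DdBIC+Hemin replicate 3. In the interferon and MHC class I list 2 of 21 rose and 0 fell (9.52% against 12.4%), NLRC5 by 0.54 (adjusted p = 0.015) and IRF7 by 0.30 (adjusted p = 0.030), and 1 was called without any 1 of the Ctrl or DdBIC+Hemin replicates. At a mean of at least 5 CPM, 363 genes spanned more than 1 log2 unit within Ctrl or DdBIC+Hemin, of which 2 were called.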
